A study of Rattus norvegicus with 9 samples.

Results

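Early erythroid precursors were chosen by measured transcripts: a cell was a member when it carried at least 2 unique molecular identifiers (UMIs, each tagging 1 captured RNA molecule) of Klf1 and at least 3 UMIs of Car1, whatever its haemoglobin level. This gave 1460 members among the 114232 cells that passed the base filter of at least 200 detected genes and at most 20% mitochondrial UMIs (1.28%, exact 95% interval 1.21% to 1.34%, counting error only). The cells came from the tibial osteotomy site of male Sprague-Dawley rats aged 6 to 8 weeks, in which a circular bone chip had been cut in the proximal tibia and, in every rat of this model, a full-thickness skin wound made on the dorsum of the hindpaw. TO stands for tibial osteotomy alone, and TOE for osteotomy followed by radial extracorporeal shockwave treatment (rESWT), pressure pulses given through the skin over the bone chip. The study's protocol treated TOE rats on both day 2 and day 4, whereas each label names 1 day, so rats of the day 4 TOE libraries may have been treated on both. Tissue was collected 0, 4 or 24 h after treatment or the matching time in TO, and libraries are named by arm, day and hour. TO had libraries at 2d 0h and 2d 4h and again at 4d 4h and 4d 24h, and TOE at 2d 4h and 2d 24h and at both of these later times, while TO 2d 24h was not analysed here. Each condition was a single library and the number of rats pooled in a library is not stated in the sources used here, so TOE and TO were set side by side at 2d 4h, then at 4d 4h, then at 4d 24h, with no test between conditions.

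As background, red cells arise in bone marrow from progenitors that depend first on the growth factor receptor Kit and then on erythropoietin, and that switch from a stem-like program to one driven by the transcription factors Gata1, Tal1 and Klf1. Klf1 binds CACC-type motifs and Gata1 binds GATA motifs in the promoters and enhancers of globin, haem and membrane genes. Precursors then divide a limited number of times while filling with haemoglobin, build a spectrin and band 3 membrane skeleton, condense the nucleus and finally clear their organelles. Carbonic anhydrase 1, encoded by Car1, is an early mark of the lineage, and the alpha haemoglobin stabilising protein Ahsp protects free alpha globin.

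The promoters of the genes the results turn on were taken from RefSeq (assembly GRCr8) and searched in the 250 bases before the transcription start for GATAA (or its reverse complement TTATC) and for CCNCNCCC (or GGGNGNGG), a form of the CACC motif, with overlapping matches counted apart. They are shown because Klf1 served to choose the cells, Alas2 and Kit lie at opposite ends of the haemoglobin gradient described below, and Hbb and Hbb-bs are the beta globin genes whose proportions differed between libraries. Capitals mark the matches in the sequences, which are printed 5′ to 3′ in the direction of transcription and come from chr19:40158652-40158901, minus strand for Klf1, chrX:22895200-22895449, plus strand for Alas2, chr14:32978813-32979062, minus strand for Kit, chr1:167663722-167663971, minus strand for Hbb and chr1:167631631-167631880, minus strand for Hbb-bs.
Klf1: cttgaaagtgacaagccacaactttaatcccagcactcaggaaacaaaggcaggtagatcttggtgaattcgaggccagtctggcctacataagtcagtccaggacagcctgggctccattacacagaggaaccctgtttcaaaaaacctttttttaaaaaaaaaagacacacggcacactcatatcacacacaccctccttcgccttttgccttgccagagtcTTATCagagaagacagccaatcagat
Alas2: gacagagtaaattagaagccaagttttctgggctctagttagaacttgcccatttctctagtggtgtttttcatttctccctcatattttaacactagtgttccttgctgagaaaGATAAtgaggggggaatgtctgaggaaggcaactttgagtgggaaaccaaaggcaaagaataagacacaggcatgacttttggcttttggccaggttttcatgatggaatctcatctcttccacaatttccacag
Kit: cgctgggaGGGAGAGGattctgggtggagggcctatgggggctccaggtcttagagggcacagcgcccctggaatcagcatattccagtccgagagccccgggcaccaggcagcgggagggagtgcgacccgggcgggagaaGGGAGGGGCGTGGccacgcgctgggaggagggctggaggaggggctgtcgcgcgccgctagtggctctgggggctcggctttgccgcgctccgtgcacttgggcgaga
Hbb: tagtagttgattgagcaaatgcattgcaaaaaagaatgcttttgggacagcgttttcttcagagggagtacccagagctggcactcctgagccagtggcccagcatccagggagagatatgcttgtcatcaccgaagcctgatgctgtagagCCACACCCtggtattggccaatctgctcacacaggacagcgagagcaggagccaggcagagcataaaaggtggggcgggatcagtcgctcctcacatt
Hbb-bs: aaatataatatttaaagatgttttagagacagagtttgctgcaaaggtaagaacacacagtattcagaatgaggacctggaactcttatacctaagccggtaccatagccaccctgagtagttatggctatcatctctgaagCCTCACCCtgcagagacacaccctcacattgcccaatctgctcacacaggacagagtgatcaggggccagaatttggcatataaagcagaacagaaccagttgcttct
The Klf1 window held a GATA match starting 26 bases before the start and the Alas2 window one at 135 bases, whereas the Kit window held no GATA match and 3 CACC matches, the first at 242 bases. The Hbb and Hbb-bs windows each held 1 CACC match, at 98 and 108 bases before the start, and shared 129 of 245 bases (52.7%) at their best shift without gaps. Of all 33469 promoters in the table, 23.5% held the GATA and 42.8% the CACC motif. Of the 14 erythroid transcription factor promoters that matched by symbol, out of 20 listed genes, 35.7% held GATA and 85.7% held CACC, and of the 13 haem synthesis promoters, out of 17 listed genes, 23.1% and 76.9% did. Among the other gene lists described below, the GATA share ran from 6.67% (G2M genes) to 33.3% (membrane genes). The CACC share ran from 23.1% (histone genes) to 93.1% (hypoxia and glycolysis genes), with 55.6% for late maturation genes. The CACC motif was found in 62.5% of the 2409 promoters of genes higher at the globin-poor end of the gradient, in 62.2% of the 1946 of genes higher at the globin-rich end and in 62.3% of the 7584 of all genes tested. The GATA motif was found in 13.4%, 15.8% and 14.7% of the same promoters.

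The libraries held between 95954800 and 144146202 UMIs in 12451 to 17187 barcodes. Members were deeply covered, with a median of 20656 UMIs, and the library medians lay between 13490 (TOE 2d 24h) and 37284 (TOE 4d 24h). The rule asks for raw counts and thus favours deeply covered cells. Over all barcodes, the library medians lay between 4522 (TO 2d 4h) and 5668 (TO 4d 4h) UMIs. Pairs of libraries shared 38 to 108 cell barcodes, and 29 of the 1460 members had a barcode that was also a cell of another library, though never a member there. A doublet score of at least 0.25 was given to 61 members (4.18%). TOE 4d 24h stood apart: no cell in it drew more than 4.24% of its UMIs from globin genes, against at least 77.0% in the highest cell of every other library, and its B lineage cells drew 0.00143% of UMIs from globins against 0.0625% to 0.176% elsewhere. Gradient counts and the medians of the main lists are therefore also given without it, and every value of the 4d 24h pair rests on it.

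All 5 markers of the label were present in every library. Levels are given as CPM, UMIs of a gene per 1000000 UMIs outside globin genes in the same cells. The lowest, median and highest library values were 350.4, 436 and 593 CPM for Klf1 and 1820, 2853 and 3492 CPM for Car1, the genes that chose the cells. For the markers that did not, they were 2479, 3237 and 3871 CPM for Car2, a second carbonic anhydrase, 1674, 3016 and 3942 CPM for Ahsp, and 234, 406 and 661 CPM for Ank1, which encodes ankyrin, the anchor of the red cell membrane skeleton. In B lineage cells of the same libraries, a cell type that should lack them, Car2 reached at most 27.5 CPM, Ahsp 35.8 CPM and Ank1 4.19 CPM. Gata1, the master factor of the lineage, ranged over 107, 123 and 162 CPM in members.

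Markers of other cells were present in members, and in TOE 2d 24h some sums came near that of the erythroid markers. The summed early erythroid markers (5 genes) were 9138 CPM there, mesenchymal markers (12 genes) 8471 CPM and neutrophil markers (12 genes) 7491 CPM. These sums cover unlike numbers of genes. Their medians over the 8 libraries were 9738, 347 and 3248 CPM. All but 37 of the 1460 members held at least 5 UMIs of Cd79a, Cd79b and the neutrophil genes S100a8 and S100a9 together. Cd79a, a B cell receptor component, stood at 57.1 to 106 CPM against 1368 to 2054 CPM in B lineage cells. S100a8, a neutrophil alarmin, stood at 584 to 2188 CPM, while B lineage cells of the same libraries carried 1670 to 4888 CPM of it. The T cell gene Cd3e and the mast cell gene Ms4a2 stayed at or under 2.69 and 8.07 CPM. Col1a1, the main collagen chain of bone, was 36.2 to 582 CPM in 7 libraries and 4487 CPM in TOE 2d 24h, where B lineage cells carried 3861 CPM. The other defining markers ranged over 6.82, 10.8 and 28.2 CPM for the primary granule protease Prtn3, 66.7, 91.4 and 171 CPM for the platelet factor Pf4 and 1.56, 11.4 and 92.4 CPM for the macrophage complement gene C1qa.

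At the edge of the rule, the 110 members with exactly 2 Klf1 UMIs had a median globin share of 0.848% and 12 Ahsp UMIs, and the 156 cells with 1 Klf1 UMI and enough Car1 had 0.355% and 4 Ahsp UMIs. The 113 members with exactly 3 Car1 UMIs had a median globin share of 35.9%, close to the 36.2% of the 186 cells with 2 Car1 UMIs and enough Klf1. Another 1091 cells had at least 2 Klf1 UMIs and no Car1 UMI, with a median globin share of 46.0%. The Klf1 threshold thus bordered on globin-poor cells and the Car1 threshold on globin-rich ones.

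Members made up between 0.416% of cells in TOE 2d 24h (60 cells, 0.317% to 0.535%) and 2.01% in TO 4d 24h (284 cells, 1.79% to 2.26%). TOE 4d 24h had 0.552% (68 cells). The other 5 libraries lay between 1.28% (TOE 2d 4h, 217 cells) and 1.71% (TOE 4d 4h, 237 cells), with 1.48% in TO 2d 0h (215 cells), 1.29% in TO 2d 4h (197 cells) and 1.43% in TO 4d 4h (182 cells) in between. Both TOE libraries collected at 24 h lay below every other library, and their intervals did not overlap with those of the other 6. In the 2d 4h pair the share in TOE was 0.996 times that in TO (exact conditional 95% interval 0.817 to 1.21), so no difference was detectable at this depth. At 4d 4h it was 1.20 times (0.982 to 1.46), again with an interval that includes equality. At 4d 24h it was 0.274 times (0.207 to 0.358), and 0.554 times among members under 1% globins. Relative to cells that had at least 10% globins or were members, in place of all cells, the 2d 4h ratio became 1.46. The same ratio at 4d 24h was 2.68, a value fixed by TOE holding no cell with 10% globins, so that all 68 such cells there were members, and it is no measure of more members. Since each condition was 1 library, these intervals compare libraries, and differences between rats, in tissue sampling or in treatment cannot be told apart.

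**Figure D1:**
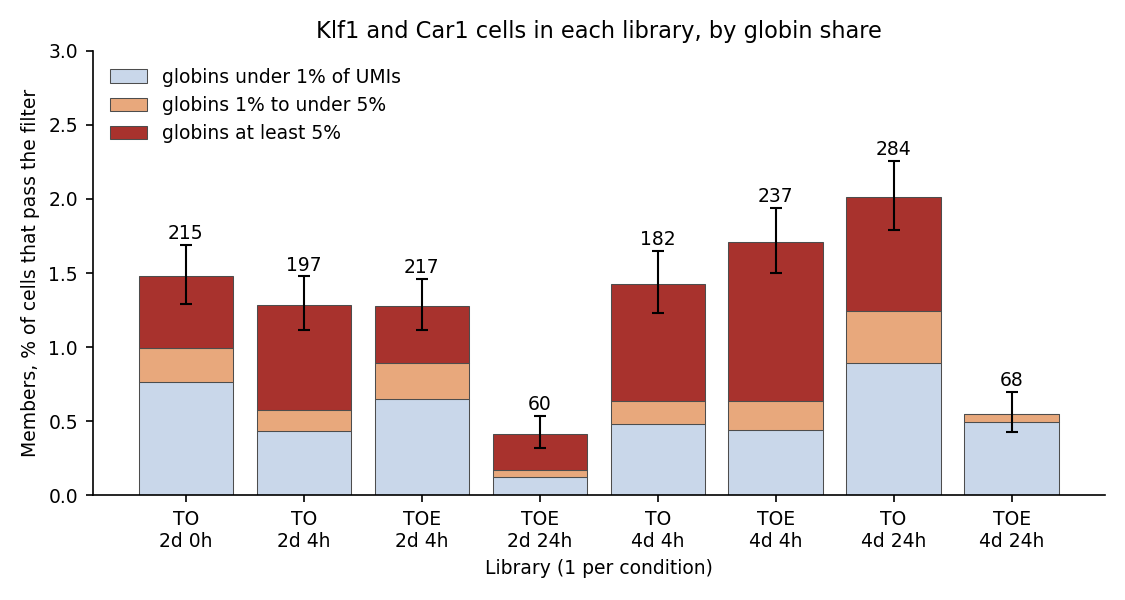
Members as a percentage of all cells that passed the base filter, by library, with exact 95% binomial intervals for counting error. The bars are stacked by the share of a member's UMIs that came from globin genes (under 1%, 1% to under 5%, at least 5%), and the number above a bar is the count of members. TO 4d 24h is the highest at 2.01%, and TOE 2d 24h (0.416%) and TOE 4d 24h (0.552%) are the lowest.

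The label early was only partly met. Globin genes supplied from 0 to 82.9% of a member's UMIs. Of the 1460 members, 614 drew under 1% of their UMIs from globins, 206 between 1% and 5%, and 640 at least 5%. Members under 1% globins had medians of 46318 UMIs, 110 Car1 UMIs and 14 Klf1 UMIs, whereas members with at least 5% had 11241 UMIs, 9 Car1 UMIs and 7 Klf1 UMIs. Within a factor of 1.25 of the cuts lay 50 cells at 1% and 64 cells at 5%. The cuts were chosen after the values were seen, and the classes are ranges of a gradient, not separate types.

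The make-up of the members along this gradient differed between libraries. In the TO libraries, taken from the earliest to the latest, 111 of 215, 66 of 197, 61 of 182 and 126 of 284 members had under 1% globins and 71, 109, 101 and 109 had at least 5%. In the TOE libraries, in the same way, 110 of 217, 18 of 60, 61 of 237 and 61 of 68 members had under 1% globins and 66, 35, 149 and 0 had at least 5%. TOE 4d 24h thus kept globin-poor members and had none at or above 5%, with an exact upper limit of 5.28% of its members (4.41% by a floor of 3 counts).

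Relative to all cells, the globin-poor and globin-rich members moved apart in the pairs. At 2d 4h, members under 1% globins were 1.51 times as frequent in TOE as in TO (1.10 to 2.08) and members with at least 5% were 0.547 times as frequent (0.397 to 0.750), the same direction as cells outside the rule with at least 50% globins (0.457 times, 0.367 to 0.567). At 4d 4h the order was the other way round, at 0.919 times (0.634 to 1.33) for the globin-poor and 1.36 times (1.05 to 1.76) for the globin-rich members, with 1.00 times (0.812 to 1.24) for the haemoglobin-rich cells outside the rule. At 4d 24h, globin-poor members were 0.554 times as frequent (0.401 to 0.758), while globin-rich members fell from 109 cells to 0. Haemoglobin-rich cells outside the rule fell from 154 to 0. With a floor of 3 cells in place of 0, these falls were 31.8-fold and 44.9-fold. The floor leaves out the counting error of TO, and the exact upper limits of the ratios were 0.0394 and 0.0277. The globin UMIs of B lineage cells, lowest in TOE 4d 24h as given above, moved with these counts, and their part was not tested. As a share of cells that had at least 10% globins or were members, members made up 14.7% (TOE 2d 24h) to 40.0% (TOE 2d 4h), and in TOE 4d 24h all 68 such cells were members.

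**Figure D2:**
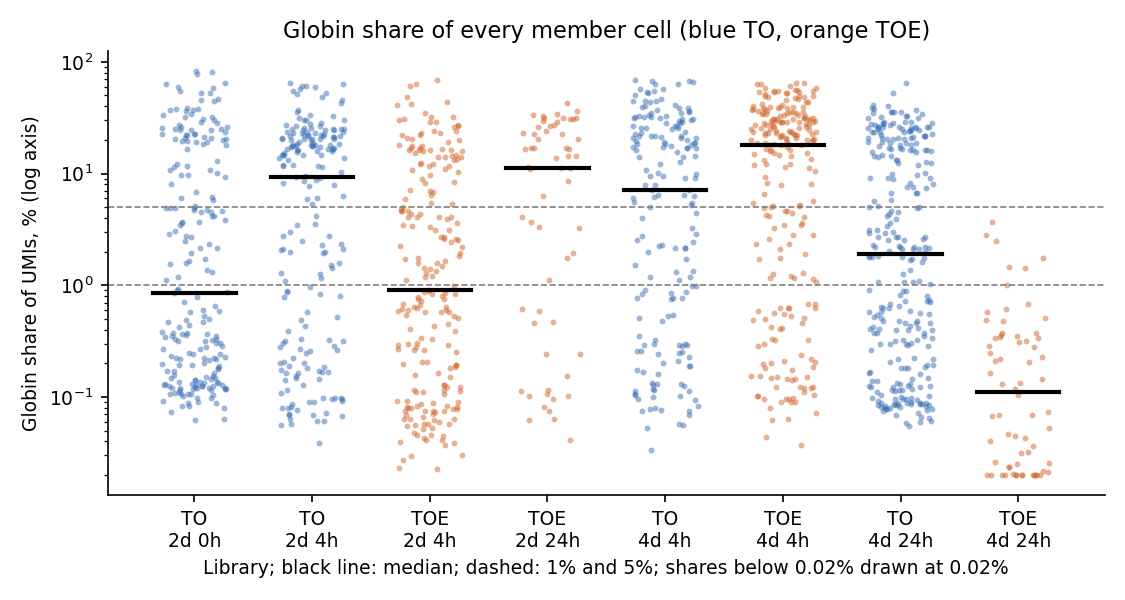
Share of UMIs from globin genes in each member (log axis, percent), by library, with TO in blue and TOE in orange. Each point is 1 cell, black bars are medians, the dashed lines mark 1% and 5%, and shares below 0.02% are drawn at 0.02%. Members of 7 libraries spread from below 1% to above 40%, and those of TOE 4d 24h stay at or under 3.71%.

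The globin chains themselves differed in kind between libraries. Alpha and beta globins pair into adult haemoglobin, and the rat carries several near-identical beta genes, among which reads can be misassigned, so single-gene values are uncertain. Hbb supplied 57.7% of beta globin UMIs in the members of TO 2d 0h and 66.2% in those of TOE 2d 24h, but 1.69% to 8.38% in the other 6 libraries, where Hbb-bs supplied 62.0% to 91.4%. The same 2 libraries had 1.62 alpha UMIs per beta UMI each, against 2.78 to 3.39 in 5 libraries and 0.917 in TOE 4d 24h. The split was also present in haemoglobin-rich cells outside the rule, where Hbb supplied 69.9% and 71.6% in those 2 libraries and 5.60% to 12.9% in the 5 others that had such cells, and in the globin UMIs of B lineage cells (67.7% and 69.8%, against 4.72% to 10.7%). Among members with at least 50 beta globin UMIs, Hbb made up over 50% in 72 of 147 cells of TO 2d 0h and in 36 of 48 cells of TOE 2d 24h, and in no cell of the other libraries. The per-cell share was graded rather than all or none, with 70 of the 147 cells of TO 2d 0h between 10% and 50%. Members under 1% globins drew less of their beta globin from Hbb than all members did in each of the 8 libraries, with 23.4% and 17.2% in those 2 and 0.461% to 1.54% in the other 6. The 2 libraries differ in treatment and in hour from each other, and treatment, hour and animal cannot be told apart.

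**Figure D3:**
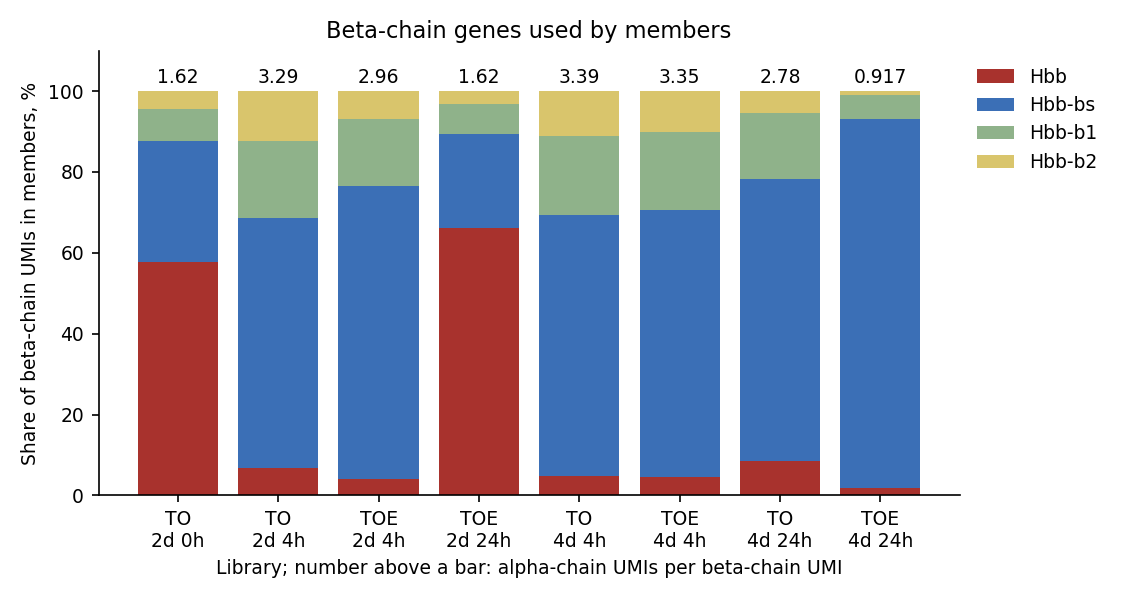
Share of beta globin UMIs from each beta globin gene (percent, stacked to 100%) in the members of each library, with alpha globin UMIs per beta globin UMI above each bar. Hbb leads in TO 2d 0h (57.7%) and TOE 2d 24h (66.2%), and Hbb-bs leads in the other 6 libraries.

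The gradient inside the members was the one comparison with replicates. In each of the 8 libraries, members were ranked by globin share into 3 equal parts, and the UMIs of the lowest and of the highest part were summed and compared with edgeR's quasi-likelihood test, with the library as a block, Benjamini-Hochberg adjustment over all genes and globins left out. These sums are called the globin-poor and globin-rich ends, and a log2 difference is rich minus poor. Of 9407 genes tested, 2439 (25.9%) were higher at the rich end and 2914 (31.0%) at the poor end at an adjusted p under 0.05, with a median log2 difference of -0.10. The counts of called list members below are read against these background shares. Depth moved with the gradient: in 7 libraries the poor end had a median of 38457 to 60212 UMIs per cell and the rich end 8312 to 11993, while in TOE 4d 24h the poor end had 28760 and the rich end 59131 and even the rich end had a median globin share of only 0.497%. Without TOE 4d 24h, 2523 genes were higher and 3447 lower at the rich end, and 2336 and 2825 of the original calls were among them. In the fit without it, the medians of haem synthesis, membrane, late maturation and stem and progenitor genes (lists described below) were 2.31, 3.04, 2.67 and -2.32, and 22 of 28 heat shock chaperones were called at the poor end with a median of -1.21. The rule itself trims the gradient, since it keeps only globin-rich cells that still hold 3 Car1 UMIs.

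Haem synthesis rose along the gradient as a group. Of 17 listed genes, all tested, 16 were higher at the rich end and none at the poor end, with a median log2 difference of 2.37. Alas2, the erythroid form of the enzyme that opens haem synthesis, ranged from 1.42 through 6.37 to 26.1 CPM at the globin-poor end and from 24.2 through 1465 to 3612 CPM at the globin-rich end (log2 difference 8.11, SE 0.33, adjusted p = 9.35e-10). It was the gene with the largest log2 difference among all genes tested, and its lowest library, TOE 4d 24h, kept the ends from separating fully. Fech, which inserts iron into the ring, went from a median of 88.9 to 879 CPM (log2 difference 3.63, SE 0.31, adjusted p = 6.08e-07) and Cpox, which acts midway in the pathway, from 227 to 1542 CPM (log2 difference 2.90, SE 0.20, adjusted p = 6.80e-08). The one gene that did not pass was Alas1, the housekeeping form of the opening enzyme, at 14.3 CPM at the poor end and 10.7 CPM at the rich end (log2 difference -0.60, SE 0.35, adjusted p = 0.158).

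Iron handling was less uniform. Of 23 listed genes, 21 were tested, 12 were higher at the rich end, 3 at the poor end (5 with fixed cuts at 1% and 5% globins) and 6 did not pass, with a median of 0.80. Slc25a37, which carries iron into mitochondria, went from a median of 36.2 to 1778 CPM (log2 difference 5.76, SE 0.42, adjusted p = 1.34e-07), and Tfrc, the transferrin receptor, from 343 to 1892 CPM (log2 difference 2.42, SE 0.17, adjusted p = 8.21e-08). Ncoa4, which sends ferritin for breakdown, differed by 3.18 on the log2 scale and the ferritin heavy chain gene Fth1 by 0.55. In the other direction, Tfr2, a partner of the erythropoietin receptor, stood at 99.7 CPM at the poor end and 31.9 CPM at the rich end (log2 difference -1.26, SE 0.22, adjusted p = 3.05e-04).

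The membrane and its skeleton showed the same pattern. Of 28 listed genes, 26 were tested, 23 were higher at the rich end and 1 at the poor end, with a median of 2.89. Slc4a1, which encodes the anion exchanger band 3, ranged from 0 through 44.3 to 113 CPM at the globin-poor end and from 145 through 3359 to 4723 CPM at the globin-rich end (log2 difference 6.52, SE 0.36, adjusted p = 1.12e-08). The poor and rich ends did not overlap. Rhd, a blood group antigen, went from a median of 68.0 to 1214 CPM (log2 difference 4.24, SE 0.21, adjusted p = 3.71e-09) and the actin capper Tmod1 from 10.0 to 161 CPM (log2 difference 4.07, SE 0.22, adjusted p = 8.59e-09). Tmod3, the tropomodulin used in nucleated precursors, was higher at the poor end by 0.74 on the log2 scale, and Cd44, an adhesion receptor, and Slc2a1, a glucose transporter, did not pass.

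Among the globin chaperone and red cell enzymes, 17 of 20 listed genes were tested, 11 were higher at the rich end and 2 at the poor end (1 without TOE 2d 4h), with a median of 1.39. Ahsp ranged from 216 through 1247 to 1711 CPM at the globin-poor end and from 2725 through 9640 to 12740 CPM at the globin-rich end (log2 difference 3.21, SE 0.16, adjusted p = 6.10e-09), so the ends did not overlap. Car2 ranged from 659.5 through 2107 to 2509 CPM at the globin-poor end and from 3688 through 5526 to 9420 CPM at the globin-rich end (log2 difference 1.83, SE 0.17, adjusted p = 1.69e-06) and did not overlap either. Prdx2, an antioxidant peroxiredoxin, differed by 2.60 and Bpgm, which makes the effector that lowers oxygen affinity, by 2.76. Adk, which phosphorylates adenosine, and Ak1, an adenylate kinase, were higher at the poor end (-1.31 and -1.44). Car1 and Klf1 were kept out of the test because they chose the cells. Car1 stood at 1761, 2646 and 2977 CPM at the globin-poor end and at 1026, 1390 and 4284 CPM at the globin-rich end (lowest, median and highest library), lower at the rich end in 7 libraries and higher in TOE 4d 24h, where it went from 2072 to 4284 CPM. Klf1 stood at 239.7, 305 and 386 CPM and 405, 829.7 and 1368 CPM in the same order.

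The late maturation list, which holds genes of organelle clearance, ubiquitin turnover and cell cycle exit and includes Alas2 and Slc4a1, was higher at the rich end in 32 of 35 tested genes and at the poor end in none, with a median of 2.49. Alox15, a lipoxygenase linked to mitochondrial breakdown, went from a median of 0.863 to 59.4 CPM (log2 difference 7.55, SE 0.50, adjusted p = 5.90e-08), the ubiquitin ligase gene Trim58 from 2.57 to 137 CPM (log2 difference 5.85, SE 0.44, adjusted p = 1.82e-07) and the erythroid nuclear protein gene Hemgn from 82.0 to 1393 CPM (log2 difference 4.31, SE 0.17, adjusted p = 9.35e-10). The most abundant member, the ubiquitin gene Ubb, differed by 1.11. Acp5, Bsg and Fbxo9 did not pass.

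Transcription factors of the lineage split. Of 20 listed genes, 19 were tested (Klf1 was kept out), 11 were higher at the rich end, 4 at the poor end and 4 did not pass, with a median of 0.94. Gata1 ranged from 93.2 through 102 to 129 CPM at the globin-poor end and from 106 through 195 to 255 CPM at the globin-rich end (log2 difference 1.00, SE 0.16, adjusted p = 1.30e-04), with overlapping ends, and Tal1, its partner, went from a median of 148 to 434 CPM (log2 difference 1.75, SE 0.20, adjusted p = 6.86e-06). Larger differences were seen for E2f2, which couples division to maturation (45.5 to 674 CPM; log2 difference 4.09, SE 0.41, adjusted p = 2.51e-06), and Nfe2, a globin locus factor (22.5 to 202 CPM; log2 difference 3.53, SE 0.50, adjusted p = 5.74e-05). Zfpm1, the Gata1 cofactor and the most abundant gene of the list, differed by 1.07. Higher at the poor end were the corepressor Cbfa2t3 (log2 difference -2.66, SE 0.24, adjusted p = 8.67e-07), the fetal globin repressor Bcl11a (log2 difference -1.42, SE 0.27, adjusted p = 5.88e-04) and the bridging protein gene Lmo2 (log2 difference -1.15, SE 0.26, adjusted p = 0.00187).

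Stem and progenitor genes ran the other way. Of 20 listed genes, 10 were tested, 7 were higher at the poor end and 1 at the rich end (3 with fixed cuts at 1% and 5% globins, 2 without TOE 4d 24h), with a median of -2.25. Kit, the receptor for stem cell factor, ranged from 34.7 through 68.4 to 209.9 CPM at the globin-poor end and from 0 through 1.76 to 34.4 CPM at the globin-rich end (log2 difference -4.01, SE 0.39, adjusted p = 2.05e-06). It was higher at the poor end in all 8 libraries. Meis1, a stem cell homeobox gene, fell to 0.749 CPM from 17.5 CPM in the medians (log2 difference -4.68, SE 0.69, adjusted p = 7.87e-05), Angpt1, a secreted angiopoietin, to 3.25 from 85.8 CPM (log2 difference -3.87, SE 0.30, adjusted p = 2.33e-07), Gata2, which Gata1 replaces, to 17.5 from 137 CPM (log2 difference -2.46, SE 0.23, adjusted p = 1.30e-06), and Myb to 85.1 from 389 CPM (log2 difference -2.03, SE 0.20, adjusted p = 1.76e-06). The one gene higher at the rich end was Gfi1 (2.81 CPM at the poor end and 8.10 CPM at the rich end, log2 difference 1.41, SE 0.50, adjusted p = 0.0271). Its call was lost without TO 2d 0h, and it fell under the low-count filter, and so was not tested, without TO 2d 4h, TO 4d 24h or TOE 2d 4h, with globins kept, with doublets or Cd79a and Cd79b members left out and with the filter set by end of the gradient. B lineage cells carried 51.9 to 81.3 CPM of it.

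The erythropoietin and growth factor response list was mixed. Of 23 listed genes, 21 were tested, 8 were higher at the rich end and 4 at the poor end, with a median of 0.32. The erythropoietin receptor gene Epor went from a median of 61.3 to 142 CPM (log2 difference 1.35, SE 0.20, adjusted p = 6.72e-05). Erfe, the hormone by which precursors lower hepcidin, went from 11.0 to 78.0 CPM (log2 difference 3.00, SE 0.28, adjusted p = 1.30e-06), and the survival gene Bcl2l1 from 15.9 to 88.7 CPM (log2 difference 3.00, SE 0.44, adjusted p = 7.16e-05). B lineage cells carried a median of 7.001 CPM of Erfe and 195 CPM of Bcl2l1. At the poor end, the sialomucin gene Podxl (-2.02) and the glucocorticoid receptor gene Nr3c1 (-0.76) were higher, as was Kit, which is also on this list. The receptor kinase gene Jak2 and the feedback genes Cish and Socs3 did not pass.

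**Figure D4:**
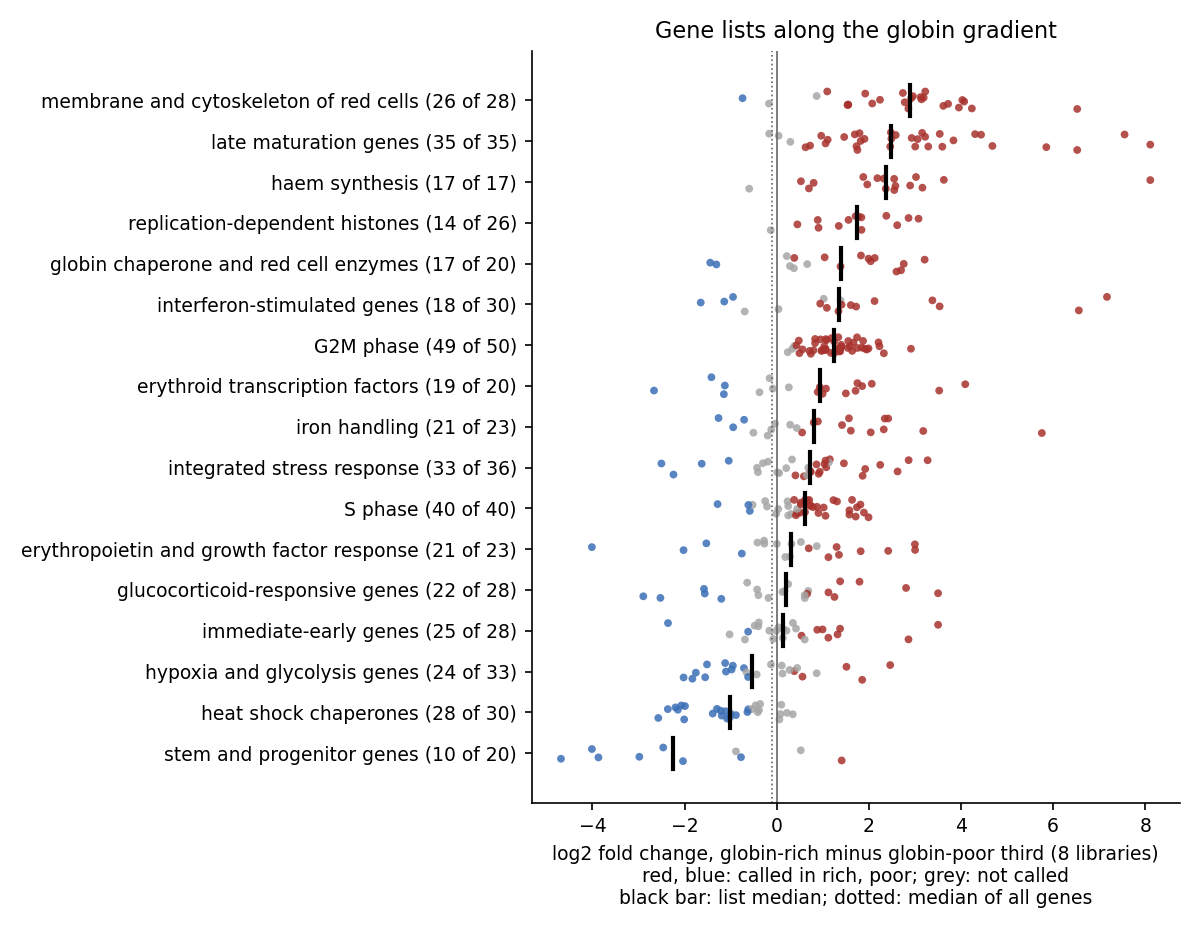
Log2 difference between the globin-rich and globin-poor ends (rich minus poor) for the tested genes of each list, with each gene as a point (red called higher at the rich end, blue at the poor end, grey not called) and the list median as a bar. The solid line marks equal levels and the dotted line the median of all genes. Membrane (median 2.89), late maturation (2.49) and haem synthesis (2.37) genes lie highest, and stem and progenitor genes (-2.25) and heat shock chaperones (-1.01) lowest.

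Most of the tested division genes were higher at the rich end. Of 50 listed G2M genes, 49 were tested, 46 were higher at the rich end and none at the poor end, with a median of 1.25. Mki67, a mark of cycling cells, ranged from 266 through 455 to 795 CPM at the globin-poor end and from 629 through 2176 to 3378 CPM at the globin-rich end (log2 difference 2.23, SE 0.20, adjusted p = 9.65e-07). Nusap1, a spindle protein gene, differed by 2.92 and Hmgb2, a chromatin protein gene and the most abundant of the list, by 1.08. Of 40 S phase genes, 27 were higher at the rich end and 3 at the poor end (1 with members split into 2 equal parts in place of 3), with a median of 0.61, including E2f8 (2.00), the licensing factor gene Cdt1 (1.82) and Pcna (1.06), while Ung, a uracil repair enzyme gene, was higher at the poor end (-1.28). Of 26 listed histone genes, 14 were found and tested and 13 were higher at the rich end, with a median of 1.75; this list also holds the replacement histones H3f3a, H3f3b and H2az1 and the linker H1f0, which are not tied to replication.

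Of the 17 lists, the chaperones of the heat shock response had the largest number of genes called at the poor end. Stem and progenitor genes had a larger part of their tested genes called there (7 of 10) and a lower median (-2.25). Of 30 listed chaperones, 28 were tested, with a median of -1.01. None was higher at the rich end and 18 were higher at the poor end. Hsp90ab1, the constitutive HSP90 gene and the most abundant of the list, ranged from 3088 through 4053 to 5790 CPM at the globin-poor end and from 411 through 665 to 4169 CPM at the globin-rich end (log2 difference -2.20, SE 0.34, adjusted p = 1.17e-04). Its cochaperone gene Fkbp4 went from a median of 309 to 37.0 CPM (log2 difference -2.57, SE 0.42, adjusted p = 1.91e-04) and the mitochondrial chaperonin gene Hspe1 from 1382 to 191 CPM (log2 difference -2.14, SE 0.34, adjusted p = 1.30e-04). Hspa8, the constitutive HSP70 gene, differed by -1.02. The stress-induced genes Hspa1a, Hspa1b, Dnajb1 and Hsph1 did not pass.

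Hypoxia and glycolysis genes also leaned to the poor end, with 11 of 24 tested genes higher there and 5 at the rich end, and a median of -0.53. The 5 became 2 without TO 4d 4h, 3 without TMM scaling, without the low-count filter or with members split into 2 equal parts in place of 3, and 8 with fixed cuts at 1% and 5% globins. The glycolytic enzyme genes Tpi1 (228 to 52.4 CPM; log2 difference -2.02, SE 0.31, adjusted p = 1.05e-04), Ldha (475 to 93.4 CPM; log2 difference -1.83, SE 0.27, adjusted p = 7.22e-05) and Gapdh (1089 to 512 CPM; log2 difference -0.95, SE 0.19, adjusted p = 7.34e-04) were higher at the poor end. Bnip3l, which marks mitochondria for removal and is also on the late maturation list, went the other way, from a median of 127 to 548 CPM (log2 difference 2.46, SE 0.35, adjusted p = 5.88e-05).

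Stress and signalling lists were mixed. Of 33 tested genes of the integrated stress response, 18 were higher at the rich end and 4 at the poor end (7 with fixed cuts at 1% and 5% globins), with a median of 0.73. Eif2ak1, the haem-regulated kinase that slows globin synthesis when haem is short, went from a median of 86.8 to 621 CPM (log2 difference 2.87, SE 0.26, adjusted p = 1.27e-06), and Ppp1r15a, which reverses its action, from 56.8 to 352 CPM (log2 difference 3.28, SE 0.22, adjusted p = 7.39e-08). The serine synthesis genes Phgdh (log2 difference -2.50, SE 0.39, adjusted p = 1.23e-04) and Psat1 (log2 difference -1.63, SE 0.31, adjusted p = 5.27e-04) were higher at the poor end. Of 25 tested immediate-early genes, 8 were higher at the rich end (5 without the library block) and 2 at the poor end (1 to 4 with 1 library left out, 4 without TO 4d 4h, TOE 4d 24h or TMM scaling), with a median of 0.14, and the listed genes Fos, Jun, Junb and Ier2 did not pass. Dusp1, a kinase phosphatase gene (63.1 to 880 CPM; log2 difference 3.50, SE 0.21, adjusted p = 2.83e-08), and Btg2, an antiproliferative gene (209 to 1469 CPM; log2 difference 2.86, SE 0.21, adjusted p = 1.46e-07), were higher at the rich end, and Myc (54.7 to 7.39 CPM; log2 difference -2.36, SE 0.24, adjusted p = 3.49e-06) at the poor end. Of 22 tested glucocorticoid-responsive genes, 7 were higher at the rich end and 5 at the poor end, with a median of 0.21, among them the kinase gene Sgk1 (2.81), the metallothionein gene Mt2A (-2.89) and the progenitor genes Zbtb16 (-2.52) and Zfp36l2 (-1.58).

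Interferon-stimulated genes were not uniform. Of 30 listed genes, 18 were tested, 11 were higher at the rich end and 3 at the poor end (5 without the low-count filter), with a median of 1.36. Without TOE 4d 4h, 7 of 17 tested genes were higher at the rich end, and with the low-count filter set by end of the gradient 5 of 9 were. Rsad2, an antiviral enzyme gene, ranged from 0 through 0.792 to 2.12 CPM at the globin-poor end and from 1.56 through 66.6 to 307 CPM at the globin-rich end (log2 difference 7.17, SE 0.50, adjusted p = 8.61e-08), against at most 6.77 CPM in B lineage cells. Ifit1 went from a median of 0 to 10.9 CPM (log2 difference 6.56, SE 0.63, adjusted p = 5.14e-06), resting on 2 UMIs at the poor end and 51 at the rich end, so that its fitted size depends on the prior count of the fit, and the ubiquitin-like gene Isg15 from 1.18 to 4.91 CPM (log2 difference 3.54, SE 0.66, adjusted p = 5.79e-04). Among the most abundant genes of the list, the immunoproteasome genes Psmb8 and Psmb9 stood lower at the rich end (-1.65 and -0.95), and both passed the test.

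Over all genes tested, the 10 with the largest called differences at the rich end were Alas2, Alox15 and Rsad2, already described, and LOC102546610, LOC120094622, LOC120101509, LOC102557529, Stra8, Bpifa6 and Evc2. These 7 had medians of 9.09 to 77.1 CPM at the rich end and at most 0.894 CPM at the poor end. Except for LOC102557529, their fitted sizes, and so their order, depend on the prior count of the fit: the poor end was at 0 in 7 of 8 libraries for Stra8, Bpifa6 and LOC120094622, in 6 for LOC102546610 and Evc2 and in 5 for LOC120101509, and Evc2 was higher at the rich end in 5 of 8 libraries. The 10 with the largest called differences at the poor end were Cyp1b1, Celf5, Matk, Nsg2, Ltbp1, Fam184a, LOC685680, LOC102552685, LOC120095302 and LOC120102229. The sizes for LOC685680, LOC102552685, Celf5 and Matk depend on the prior count too, since the rich end was at 0 in 7 of 8 libraries. Those for Fam184a, LOC120095302 and LOC120102229 may do so as well, with the rich end at 0 in 5 of 8 libraries. Ltbp1, which encodes a protein that binds latent TGF-beta, was by far the most abundant of these 10 genes and ranged from 326 through 586 to 1691 CPM at the globin-poor end and from 0 through 3.32 to 417 CPM at the globin-rich end (log2 difference -5.26, SE 0.55, adjusted p = 4.12e-06). It stood lower at the rich end in all 8 libraries. Cyp1b1, a cytochrome P450 gene, went from a median of 31.2 to 0 CPM (log2 difference -5.74, SE 0.49, adjusted p = 1.01e-06), with 775 UMIs at the poor end and 2 at the rich end, and its fitted size depends on that count in the same way.

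Markers of other cells moved along the gradient too, and their part in the results was not tested. The summed B lineage markers (10 genes found) went from a median of 421 CPM at the poor end (318 to 929) to 1089 CPM at the rich end (463 to 1713), against 11340 CPM in B lineage cells, and 6 of the 7 tested were higher at the rich end and none at the poor end. Summed neutrophil markers (12 genes) were 3013 and 2642 CPM (1487 to 8076 and 1768 to 7094), with 3 of 9 tested higher at the rich end. Monocyte and macrophage markers (12 genes) went from a median of 416 (264 to 1191) to 580 (342 to 1148) CPM, plasma cell markers (8 genes) from a median of 61.0 (26.5 to 80.2) to 79.7 (39.4 to 149.8) CPM and T and NK cell markers (9 genes) from a median of 16.8 (9.37 to 34.3) to 15.8 (7.25 to 37.1) CPM. In these 3 sets, 2 of 4, 3 of 4 and 0 of 1 tested genes were higher at the rich end, and none at the poor end. Mast cell and basophil markers (10 genes) went from a median of 153 (97.5 to 269.5) to 52.5 (21.7 to 94.6) CPM, megakaryocyte and platelet markers (14 genes) from a median of 173 (147 to 437) to 62.7 (29.6 to 83.9) CPM and endothelial markers (8 genes) from a median of 76.0 (55.1 to 111) to 17.1 (5.91 to 44.6) CPM, with 1 of 2, 2 of 2 and 1 of 2 tested genes higher at the poor end. Mesenchymal markers (12 genes) spread most, from a median of 362 (141 to 12180) to 479 (149.5 to 1428) CPM, with 1 of 9 tested genes called at each end. With members holding at least 5 UMIs of Cd79a and Cd79b left out, 2465 genes were higher at the rich end and 2501 at the poor end, 2244 and 2393 of them among the original calls.

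Between arms, TOE and TO members were set side by side as log2 ratios of CPM, TOE over TO. A gene was counted as past 2-fold among those with at least 50 UMIs over the pair. In the 2d 4h pair, 238 of 9651 genes (2.47%) were past 2-fold higher in TOE and 232 (2.40%) lower. In the 4d 4h pair, 129 of 9687 (1.33%) were higher and 122 (1.26%) lower, and in the 4d 24h pair 923 of 9915 (9.31%) were higher and 363 (3.66%) lower. Of the genes past 2-fold at 2d 4h, 50.6% were higher in TOE, 39.1% when ratios were centred on the median gene, 60.2% when scaled to all UMIs and 59.2% without doublets. At 4d 4h the share was 51.4%, with 39.0% for at least 3 Klf1 and 5 Car1 UMIs and 60.0% without doublets. Which direction held more genes was thus not settled in either pair. At 4d 24h the share was 71.8%, and 65.4% after centring. The sums of that pair were unlike in size, with 9276833 UMIs outside globin genes from 284 members in TO and 2850960 from 68 members in TOE. A single cell thus weighs more in the TOE sum, and the part of this in the share was not tested. Since the stage make-up differed between libraries, each list median is also given over members under 1% globins, where the counts in the same order of pairs were 242 (2.76%) and 110 (1.25%) of 8776 genes, 153 (1.84%) and 85 (1.02%) of 8294, and 1001 (10.8%) and 262 (2.82%) of 9299. Values for the 3 pairs are given below in this order, with 4d 24h last. Counts of list members past 2-fold are read against the shares of all genes past 2-fold given here. Median ratios over all genes stayed between 0.0047 and 0.11 on the log2 scale.

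The medians of the maturation lists differed between all members and members under 1% globins. Membrane genes had median log2 ratios of -0.62, 0.15 and -0.43 over all members and of -0.08, -0.31 and 0.17 over members under 1% globins. Late maturation genes had -0.58, 0.25 and -0.47, and 0.042, 0.0072 and -0.014 under 1% globins. Haem synthesis genes had -0.39, 0.084 and -0.50, and 0.14, -0.17 and -0.11 under 1% globins. B lineage cells of the same libraries had medians of -0.49, 0.11 and -1.4 for membrane genes. They had -0.094, 0.058 and -0.26 for late maturation genes and 0.37, 0.20 and -0.16 for haem synthesis genes. The part of the stage make-up in these values was not tested. Membrane genes past 2-fold lower numbered 3 of 26, 0 of 26 and 5 of 25 over all members, and 1, 2 and 0 of 25 among members under 1% globins. Alas2 was 0.354, 1.51 and 0.112 times as high in TOE as in TO, and Slc4a1 0.428, 1.35 and 0.175 times.

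Of the 17 lists, stem and progenitor genes had the highest median ratio at 4d 24h, where 5 of the 11 counted genes were past 2-fold higher and none lower. Their median log2 ratios were 0.27, -0.24 and 0.78, and 0.17, -0.18 and 0.98 under 1% globins. Kit stood at 22.9 CPM in TO and 115 CPM in TOE at 4d 24h, 5.03 times (4.22 to 6.01) as high, counting error only. In the other pairs, earliest first, its ratios were 1.94 times (1.56 to 2.42) and 0.674 times (0.540 to 0.841). Angpt1 was 4.47 times (3.85 to 5.19) and Meis1 4.15 times (3.07 to 5.63) as high in TOE at 4d 24h. Among members under 1% globins at 4d 24h, Kit was 4.20 times (3.51 to 5.04) as high. This class was not matched for globin share between the libraries. The globin-poor end spanned 0 to 0.0316% globins in TOE 4d 24h and 0.0556% to 0.403% in TO 4d 24h. Over all 8 libraries Kit ranged over 22.9, 39.4 and 115 CPM, with TOE 4d 24h the highest. Markers of other cells moved with these values in the members of the 4d 24h pair, and their part was not tested: from TO to TOE, the summed mast cell and basophil markers, which include Gata2, went from 91.2 to 169 CPM, neutrophil markers from 1928 to 5271 CPM, B lineage markers from 496 to 863 CPM, endothelial markers from 43.0 to 71.5 CPM, T and NK cell markers from 28.1 to 18.6 CPM and mesenchymal markers from 1534 to 345 CPM. In the 2d 4h pair neutrophil markers went from 3767 to 2468 CPM and B lineage markers from 527 to 710.5 CPM, monocyte and macrophage markers from 638 to 402 CPM, plasma cell markers from 31.2 to 65.0 CPM and T and NK cell markers from 13.1 to 25.5 CPM. In the 4d 4h pair mast cell and basophil markers went from 158 to 104 CPM, plasma cell markers from 39.6 to 72.6 CPM and monocyte and macrophage markers from 778 to 1699 CPM.

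Immediate-early genes, which cells switch on within minutes of a stimulus, stood lower in TOE on day 2 at 4 h and on day 4 at 24 h. Lower in TOE were 23 of 25 counted genes in the first pair, 6 of 26 in the middle one and 21 of 24 in the last, and 6, 0 and 14 of these were past 2-fold. Over all genes, 2.40%, 1.26% and 3.66% were past 2-fold lower, and the median log2 ratios were 0.0845, 0.0047 and 0.08. The medians of the list were -0.71, 0.12 and -1.18, and -0.76, 0.33 and -1.13 under 1% globins. The AP-1 gene Junb was 0.433 times (0.370 to 0.506), 1.02 times (0.894 to 1.16) and 0.445 times (0.339 to 0.575) as high in TOE. Ier2 was 0.612 times (0.521 to 0.719), 0.897 times (0.772 to 1.04) and 0.146 times (0.115 to 0.183), and Btg2 0.531 times (0.499 to 0.566), 1.02 times (0.964 to 1.08) and 0.147 times (0.127 to 0.170). Fos was 0.397 times (0.320 to 0.491), 1.55 times (1.33 to 1.81) and 0.610 times (0.494 to 0.747). B lineage cells of the same libraries had list medians of -0.76, 0.088 and -0.98, so the values moved in the same directions outside the erythroid lineage. In these cells 26, 11 and 26 of 28 counted genes were lower in TOE, and 6, 0 and 14 were past 2-fold lower. The counts are thus not particular to the members.

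Integrated stress response genes had medians of -0.25, 0.25 and -0.62 over all members, -0.072, 0.17 and -0.54 under 1% globins and -0.30, 0.16 and -1.23 in B lineage cells, with 3 of 32, 0 of 32 and 11 of 34 genes past 2-fold lower over all members. Their lower median at 2d 4h was thus smaller among members under 1% globins. Ppp1r15a was 0.397 times (0.354 to 0.445), 1.29 times (1.18 to 1.41) and 0.247 times (0.187 to 0.321) as high in TOE over all members, and Atf4, the transcription factor of this response, 0.718 times (0.658 to 0.784), 1.02 times (0.940 to 1.11) and 0.468 times (0.415 to 0.527). Glucocorticoid-responsive genes had -0.39, 0.056 and -0.63 over all members, -0.16, 0.12 and -0.56 under 1% globins and -0.49, 0.095 and -0.69 in B lineage cells.

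In the 2d 4h and 4d 24h pairs the division lists gave other medians among members under 1% globins than over all members, and in the 4d 4h pair closer ones. Histone genes had medians of -0.57, -0.49 and -0.41 over all members and of -0.17, -0.60 and 0.064 under 1% globins, so that the sign turned at 4d 24h. S phase genes had -0.039, -0.077 and -0.24, and 0.20, -0.051 and -0.09 under 1% globins, and G2M genes -0.0073, -0.10 and -0.0025, and 0.20, -0.048 and 0.14 under 1% globins. B lineage cells had 0.41, -0.19 and -0.23 for S phase and 0.80, -0.32 and 0.52 for G2M genes.

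The medians of the remaining lists were as follows. Erythroid transcription factors had -0.10, -0.017 and 0.19 over all members and -0.065, -0.068 and 0.56 under 1% globins. Erythropoietin and growth factor response genes had 0.05, 0.21 and 0.084 over all members and 0.10, 0.17 and 0.20 under 1% globins. Iron handling genes had 0.0038, 0.018 and -0.11 over all members and 0.18, -0.023 and 0.14 under 1% globins, and globin chaperone and red cell enzymes -0.22, 0.072 and -0.27 over all members and 0.22, 0.042 and -0.018 under 1% globins. Hypoxia and glycolysis genes had 0.17, 0.24 and -0.083 over all members and 0.25, 0.17 and -0.27 under 1% globins, and heat shock chaperones 0.20, 0.11 and -0.14 over all members and 0.23, 0.18 and -0.33 under 1% globins. Interferon-stimulated genes, of which 12 to 15 could be counted over all members, had 0.49, 0.50 and -0.10 over all members and 0.53, 0.19 and 0.10 under 1% globins. In B lineage cells these genes had 0.35, -0.075 and -0.15. Cish, a feedback gene of erythropoietin signalling, was 3.24 times (2.18 to 4.94) as high in TOE at 4d 4h. Hspa1b, the stress-induced HSP70 gene, stood at 1035 and 1048 CPM in the 4d 4h libraries of TO and TOE and at 198 to 378 CPM in the other 6. Its level was thus similar in both arms at 4d 4h, and the source of its difference from the other libraries was not tested.

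**Figure D5:**
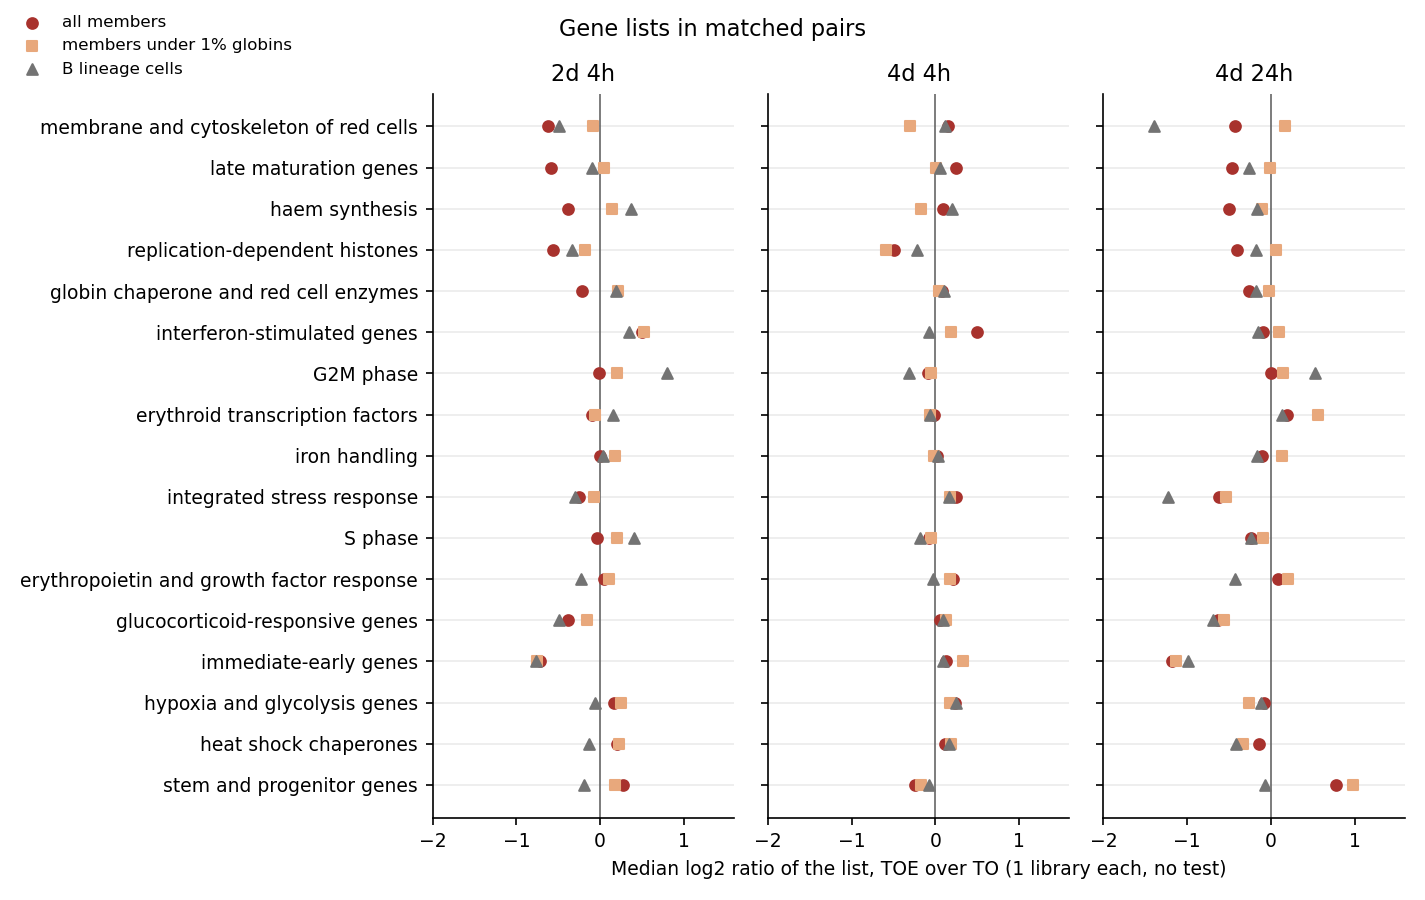
Median log2 ratio TOE over TO of each gene list in the 3 matched pairs, for all members, for members under 1% globins and for B lineage cells of the same libraries. Each point is 1 list in 1 pair with no replicates. In all members, immediate-early genes lie at -0.71, 0.12 and -1.18 from the first pair to the last, and stem and progenitor genes reach 0.78 in the last.

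Of the genes with the largest ratios in each pair, many drew much of their UMIs from 1 cell. At 4d 24h, 167 UMIs of Ctnna2, 63 of Ccl22 and 56 of Cap2 each came from 1 TOE cell, 110 of the 111 UMIs of LOC120098275 from 1 TOE cell and 69 of the 83 of Nos3 likewise. At 4d 4h, the 56 UMIs of LOC120095886 and the 52 of Slc4a8 in TOE and 55 of the 66 UMIs of Otof in TO did so as well. At 2d 4h, 67 of the 68 TOE UMIs of LOC108352575, 71 of the 90 of LOC108349512, 57 of the 110 of Mcpt9 and 116 of the 179 TO UMIs of Ccl2 came from 1 cell each. The UMIs of Arhgef15, Rhox5, Gpd1, Frmd3, LOC120093696, LOC102552490 and Hpse2 came from 4 to 12 cells of the library in which each was higher, with at least 21 UMIs in 1 of them.

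Ratios carried by many cells were fewer. Lgals5, which encodes a galectin of rat red cells, was present in 212 of 237 members of TOE and 29 of 182 of TO at 4d 4h, at 20.1 CPM in TO and 525 CPM in TOE (26.1 times, 21.2 to 32.5). At 4d 24h it was present in 7 of 68 members of TOE and 220 of 284 of TO, at 142 CPM in TO and 6.31 CPM in TOE. Over the 8 libraries its lowest, median and highest levels were 6.31, 129 and 525 CPM, and it was higher at the rich end of the gradient (log2 difference 4.16, SE 0.40, adjusted p = 1.91e-06). In haemoglobin-rich cells outside the rule, its lowest level, 1346 CPM, was in TO 4d 4h, against 2731 to 6095 CPM in the 6 other libraries with such cells. At 4d 4h, RGD1565410 was present in 11 of 237 members of TOE and 67 of 182 of TO, with 162 UMIs in TO, 42 of them in 1 cell, and 12 in TOE.

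In the 2d 4h pair, RT1-A1, a class I histocompatibility gene, was present in 82 of 217 members of TOE and 3 of 197 of TO (24.5 times, 8.17 to 121), and LOC103692723 in 42 of 217 members of TOE and 0 of 197 of TO. B lineage cells of the same libraries carried 10.3 and 25.8 CPM of RT1-A1 and 0.228 and 224 CPM of LOC103692723 in TO and TOE, so that both genes were higher in TOE in these cells too, RT1-A1 by a smaller ratio than in members. RT1-A1 stood at 0.688 CPM in the members of TO 2d 4h and at 6.999 to 21.9 CPM in those of the other 7 libraries. The related genes RT1-CE1 and RT1-CE16 ranged from 5.27 to 67.7 CPM and from 5.61 to 50.3 CPM over the libraries, and reads can be misassigned among such similar genes. Evc2 (52 UMIs in 8 TO cells), Plk2, a stress kinase gene (65 UMIs in 28 TO cells, 12 in 10 TOE cells), and Dand5 (45 UMIs in 30 TO cells, 9 in 6 TOE cells) stood lower in TOE.

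At 4d 24h, Ier3, an immediate-early gene, was present in 4 of 68 members of TOE and 106 of 284 of TO, at 44.2 and 1.40 CPM in TO and TOE, where B lineage cells carried 37.2 and 12.01 CPM. The sphingosine receptor gene S1pr1 was present in 0 of 68 members of TOE and 36 of 284 of TO, at 8.41 CPM in TO and 0 CPM in TOE, where B lineage cells carried 81.6 and 19.8 CPM. Cyp1b1 was present in 0 of 68 members of TOE and 36 of 284 of TO. Cyp1b1 was the highest in TOE 2d 24h, at 72.6 CPM, and stood at 34.8, 22.2, 19.2 and 18.6 CPM in the TO libraries from the earliest to the latest, and at 6.72, 4.75 and 0 CPM in the TOE libraries of the matched pairs. In each matched pair its level was thus lower in TOE, while the one unmatched TOE library was the highest of all. That library, TOE 2d 24h, had 60 members, whose summed mesenchymal markers stood at 8471 CPM against a median of 347 CPM over the libraries. In TO 4d 24h, 40 of the 173 Cyp1b1 UMIs came from 1 cell. The part of either in these levels was not tested.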

How the data were processed

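Single-cell suspensions from the osteotomy site were profiled as 10x Genomics Chromium 3′ libraries, 1 per condition. The authors deposited raw UMI counts per gene and cell barcode, made with Cell Ranger 9.0.0 per the file headers. Their processing notes also list Seurat, R 4.0.3 and the builds GRCh38 and mRatBN7.2, and give no role for the builds. The study's methods used Seurat for clustering and name another version of R. A matrix was used for 8 libraries, and 1 labelled condition was not analysed here.

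From these counts, cells were kept when 200 or more genes were detected and mitochondrial UMIs made up no more than 20%, and members were taken by at least 2 Klf1 and 3 Car1 UMIs. The members and gene lists were chosen with earlier results of these data known. Free RNA was not removed, and doublets were scored with Scrublet (scanpy 1.11.5, expected rate 8%) and kept, with scores of at least 0.25 left out as an alternative. B lineage cells, used to show free RNA, had at least 3 Cd79a and 1 Cd79b UMIs and no Klf1. Haemoglobin-rich cells outside the rule had at least 50% globin UMIs. CPM was computed per 1000000 UMIs outside globin genes.

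For the gradient, each library's members were ranked by globin share, UMIs of the lowest and highest of 3 parts were summed, and genes were tested with edgeR 4.0.16 (glmQLFit and glmQLFTest, TMM, filterByExpr, library as block, R 4.3.3), called at a Benjamini-Hochberg adjusted p under 0.05. Globins, Klf1 and Car1 were left out, and the SE was derived from the log2 difference and its F value. Both ends come from the same library, and their deviations from the means of the ends correlated in each library (0.0963 to 0.355), so the block follows the libraries. Libraries of different conditions served as the replicates of the gradient, and nothing says how many animals each holds. The fit was tried on simulated data with 200 changed genes among 9033, of which 65% were recovered at a log2 difference of 1 and 99% at 2, with 4 false calls. The changed genes were drawn from those with higher counts and were balanced between directions. These values thus do not cover genes with few counts, or data in which as large a part of the genes differs as here. Between arms, ratios used a prior of 0.5 UMI, genes with at least 50 UMIs over the pair and a limit of 2-fold. Shares and ratios carry exact 95% intervals, which cover counting error only, and the limit for a count of 0 was 3 counts.

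Named genes were the rule's and label's markers, the most abundant members of each list, the list members with the largest called differences in each direction (up to 3), the 10 largest called differences in each direction over all genes, the 5 largest ratios each way in each pair and 1 defining marker of each other cell type. A few list members outside this rule are named with their values, chosen after these were seen, as were Lgals5, Ltbp1, Cyp1b1 and the RT1 genes over all libraries. The classes under 1% and at least 5% globins and the alternatives built on them, the removal of members with at least 5 Cd79a and Cd79b UMIs, and a low-count filter by end of the gradient were also chosen after seeing the data. Other alternatives covered the gate, depth (cells thinned to 3000 UMIs), cell filters, doublets, normalization, DESeq2 1.42.0, the block, the split and each library left out. Other software was Python 3.11.15 with numpy 2.4.6, pandas 2.3.3, scipy 1.17.1 and matplotlib 3.10.9. Results for some genes are not reported here.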

Additional observations from a re-analysis of the deposited data

Results flagged for a closer look

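The share of members in TOE relative to TO was 1.20 times for the 4d 4h pair (237 against 182 cells), whereas the 4d 24h pair gave 0.274 times (68 against 284 cells), so that the values lay on either side of equality. The first ratio has an interval of 0.982 to 1.46, which includes equality, and became 0.919 under 1% globins, 0.230 (1 against 4 cells) without members holding B lineage and neutrophil markers and 1.55 after thinning to 3000 UMIs. Its direction thus depends on these choices. The second kept its direction under each alternative that was relative to all cells (0.114 to 0.554). It was 2.68 relative to cells with at least 10% globins or in the gate, a value fixed by TOE having no such cell that was not a member (68 of 68, against 284 of 761 in TO). Each side is 1 library, and the difference between the pairs was not tested.

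Members with at least 5% globins were 0.547 times as frequent in TOE as in TO in the 2d 4h pair and 1.36 times as frequent in that of 4d 4h, in opposite directions and with intervals that exclude equality (0.397 to 0.750 and 1.05 to 1.76, counting error only). The difference between the pairs was not tested.

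Immediate-early genes had a median log2 ratio of -0.71, 0.12 and -1.18 in members, taking the pairs from 2d 4h to 4d 24h in the order of collection. The B lineage cells of the same libraries had medians of -0.76, 0.088 and -0.98. The difference between the pairs was not tested.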

How the results depend on the processing

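Members were 1.28% of cells by the rule used, 2.45% with at least 1 UMI of each gene, 1.05% with at least 3 Klf1 and 5 Car1 UMIs, 0.496% with cells thinned to 3000 UMIs, 1.35% where 500 or more genes and no more than 10% mitochondrial UMIs were asked of a cell, and 0.0324% (37 cells) without members holding at least 5 UMIs of Cd79a, Cd79b, S100a8 and S100a9. That last removal left 1 to 10 members per library, too few to fit the gradient. The ratio TOE over TO at 2d 4h became 1.46 relative to cells with at least 10% globins or in the gate, and 1.51 over members under 1% globins. At 4d 4h it became 1.55 after thinning, 0.919 under 1% globins and 0.230 (1 against 4 cells) without members holding the B lineage and neutrophil markers. At 4d 24h it was 0.181 with the looser gate, 0.206 after thinning, 0.114 (1 against 10 cells) without members holding those markers and 0.554 under 1% globins, all in the same direction. It was 2.68 relative to cells with at least 10% globins or in the gate, which is fixed by TOE having no such cell outside the gate. The cause of the other changes was not tested.

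With at least 20 UMIs over the pair, genes past 2-fold numbered 485 higher and 466 lower in the first pair, 367 and 312 in the second, and 1529 and 578 in the last. Without members holding the B lineage and neutrophil markers they numbered 15 and 16 of 134 genes, 0 and 4 of 4, and 31 and 22 of 113. Under 1% globins, 110 genes were lower at 2d 4h.

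Along the gradient, the counts over all genes stayed within 1.5 times of those reported, whereas counts within single lists moved more in some settings, as given beside the interferon, hypoxia, immediate-early, red cell enzyme, stem and progenitor, iron, S phase and integrated stress response lists, the remaining such moves being of 1 gene. Leaving out 1 library gave 2172 to 2552 genes higher at the rich end and 2412 to 3447 at the poor end. Without the library block 2338 and 2570 were called, with DESeq2 2403 and 3100, without TMM 2076 and 3349 (median of all genes -0.23), and with fixed cuts at 1% and 5% globins 3226 and 3491. No gene called in the reported fit was called in the opposite direction in any setting. Of 2575 values for 138 named genes over 19 settings, 55 lost and 14 gained a call and 0 reversed. A gene that was not tested in a setting gave no value there, so it does not count as lost. Most of these genes were named for large called differences or high abundance, so the counts do not stand for other genes. The block is the library itself, so it pairs the ends and not the arms. Depth limits the pairs, since a gene under 50 UMIs was not counted.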
